A study of Mus musculus with 4 samples.

Results

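The 45 genes described here, of 18193 genes named on the array, encode SR proteins, heterogeneous nuclear ribonucleoproteins (hnRNPs) and other regulators of pre-mRNA splicing. Members were the probe sets annotated to a symbol beginning with Srsf or Hnrnp, or to Tra2a, Tra2b, Srrm1, Srrm2, Srpk1, Ptbp1, Ptbp2, Ptbp3, Rbm39, Celf1, Mbnl1, Mbnl2, Rbfox2, Nova1, Khdrbs1 or Elavl1. They came to 166 of the 45037 probe sets on the array that were not controls. Another 34 probe sets belong to genes that carry such a name only as an older alias. They were left out and tried as an alternative, which gave 48 probe sets lower and 21 higher in place of the 43 and 19 reported below.

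RNA was measured with 4 mouse Affymetrix arrays, 2 of Neuro2A cells depleted of 4.5SH (the knockdown) and 2 of control Neuro2A cells. Neuro2A is an established mouse neuroblastoma line, and 4.5SH is a small noncoding RNA of rodents related in sequence to the B1 repeat. Per the labels' protocols, the cells were transfected with antisense oligonucleotides at 30 nM by lipofection. The labels do not name the oligonucleotide that the control cells received. The RNA was cytoplasmic and poly(A)-selected, with 200 ng taken into labelling, and no nuclear fraction was analysed here. A lower signal can therefore come from less RNA per cell, from less of it reaching the cytoplasm or from fewer cells that make it, and these cannot be told apart. The replicates are called biological, without a statement on separate transfections, so a p-value reflects only how much these samples spread.

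SR proteins carry RNA-binding domains and a tail rich in arginine and serine, bind enhancers in exons and help the spliceosome to recognise splice sites. Many hnRNPs coat nascent RNA and often act against SR proteins by covering splice sites or looping out exons. Most of these proteins are abundant in every cell, some shuttle to the cytoplasm, and many control their own mRNA through alternative exons that expose it to decay. Neurons replace or add factors such as Ptbp2, Nova1 and the Rbfox and Elavl families.

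Values are MAS5 signals, the intensity of a probe set on a linear scale, and differences are log2(signal + 16) in the knockdown minus control with the standard error from limma. The pseudocount makes a difference understate the change of dim probe sets. The 2% trimmed mean signal was 128 and 132 for the knockdown, against 149 and 143 for the control, and the arrays correlated at 0.991 within each group and at 0.971 to 0.973 between groups. Gapdh gave a ratio of 3' to 5' signal of 0.833 and 0.787 on the knockdown arrays, against 0.884 and 0.861 on the control arrays. For Actb this ratio was higher, at 2.47 and 2.49 on the knockdown arrays, against 2.60 and 2.78 on the control arrays. Neuronal and neuroblastoma markers were above the filter for 7 of 11 measured genes, with summed signals of 6692 and 6809 in the knockdown, against 7606 and 7546 in the control. Gata3, Th, Nefl and Nefm were below it. Leukocyte markers summed to 358 and 380 in the knockdown, against 677 and 780 in the control, nearly all of it Cd68, with Ptprc, Itgam and Cd3e below the filter. Endothelial markers summed to 95.1 and 101 in the knockdown, against 166 and 146 in the control, with Pecam1 above the filter and Cdh5 and Kdr below it. Fibroblast, glial and epithelial lists overlapped between groups in their sums, with 2 genes of each above the filter. The part of these differences in the results below was not tested.

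Splicing regulators moved in both directions after 4.5SH depletion, and falls were the more common on the deposited scale. Of the 166 probe sets, 142 passed the filter on low signals, and they represent 44 genes. Srsf12 did not pass, with signals of 4.8 and 1.0 in the knockdown, against 0.4 and 0.8 in the control. At an adjusted p under 0.05 in limma, 43 of the 142 probe sets (30.3%) were lower in the knockdown, against 25.8% of all tested probe sets. Higher were 19 (13.4%), against 9.73% of all. After quantile scaling the order turned, with 25 lower (17.6%, against 16.6% of all) and 37 higher (26.1%, against 17%). The members are bright, with a median signal of 691 against 123 over all tested probe sets, and calls are more frequent among bright probe sets. Among the 107 members in the brightest 25% of the array, 41 were lower (38.3%) and 14 higher (13.1%), against 39.7% and 12.8% of all probe sets of that brightness. The number of calls was thus near that of other bright probe sets. In 58 of the 142 members (40.8%) both knockdown signals lay below both control signals, against 44.3% of all, and in 36 (25.4%) above them, against 22.6%.

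**Figure D1:**
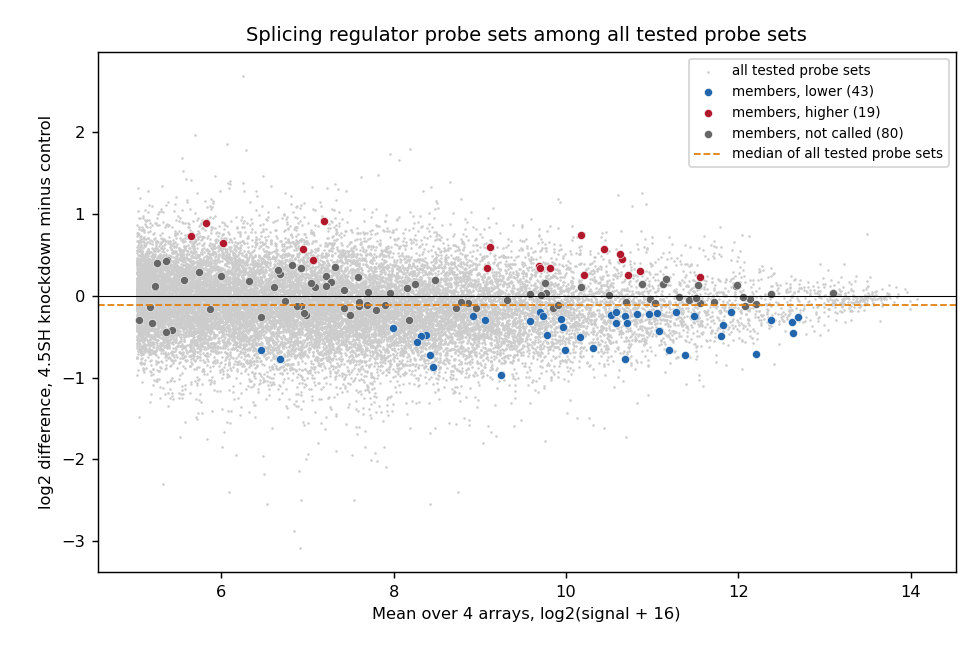
Log2 difference (4.5SH knockdown minus control, vertical axis) against the mean log2(signal + 16) over 4 arrays (horizontal axis) for every tested probe set (grey dots) and for the 142 member probe sets, coloured by call. The 43 lower and 19 higher members lie on both sides of the median of all tested probe sets, which is at -0.11.

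With each gene represented by its brightest tested probe set, 20 of 44 genes were lower (45.5%) and 6 higher (13.6%), against 32.8% and 8.89% of all genes. Unlike the shares of probe sets above, these shares of genes were not compared at like brightness. The median log2 difference was -0.15 for the member genes and -0.16 for all genes. All these values depend on the scale of the arrays, because the median of all tested probe sets was at -0.11 as deposited, near 0 after quantile scaling and at -0.19 with scaling to the hybridization spike-ins. After quantile scaling 15 member genes were lower and 11 higher, against 21.3% and 16.7% of all genes. With spike-in scaling 21 were lower and 2 higher, against 38.8% and 5.49% of all. Falls of 14 genes were called on the deposited scale, under each of 4 other scalings and without each array in turn. These were Srsf2, Srsf4, Srsf5, Srsf9, Srrm1, Tra2a, Hnrnpa1, Hnrnpc, Hnrnph1, Hnrnph3, Hnrnpl, Hnrnpll, Hnrnpm and Ptbp2. The rise of Mbnl1 held in the same way. That of Nova1 held under the scalings and was lost without 2 of the arrays. Those of Tra2b, Hnrnpu, Ptbp3 and Khdrbs1 were lost with spike-in scaling. The share of all genes that held in this way was not counted, so the 14 falls have no background beside them. In limma without the intensity trend 11 member genes were lower, in place of 20. Srsf2 was not called when _x_at and _s_at probe sets were left out.

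**Figure D2:**
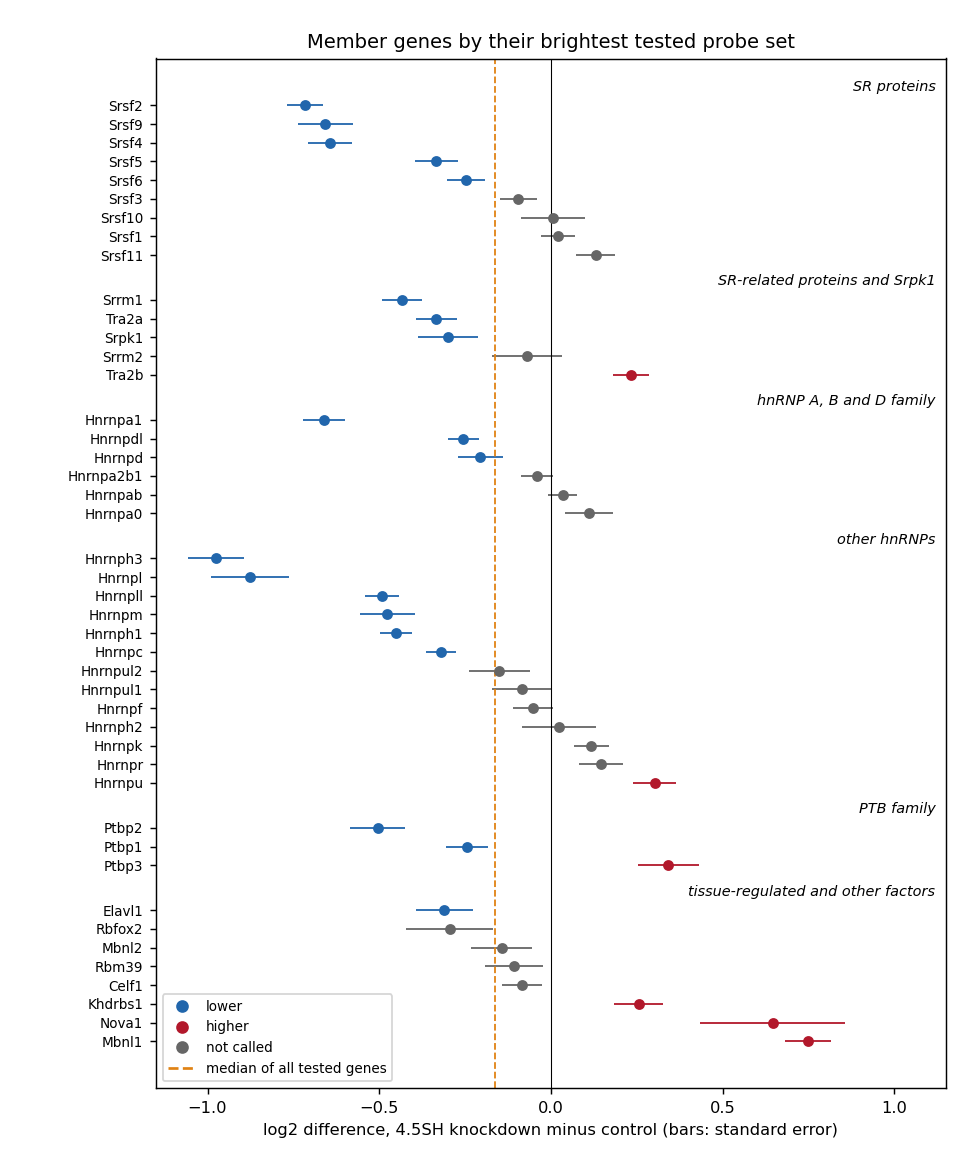
Log2 difference (4.5SH knockdown minus control) of the 44 tested genes at their brightest tested probe set, grouped by role and sorted within groups. Points are the fitted differences, bars the standard errors from limma, the dashed line the median of all tested genes (-0.16), and Hnrnph3 (-0.97) and Mbnl1 (0.75) mark the ends of the range.

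The promoters of the genes with the largest fall in 3 of the groups, and of the gene with the largest rise, are printed to show the sequence from which these transcripts start. Each is the 250 bases before an annotated start, 5' to 3' on the gene's strand, from RefSeq on GRCm38.p6. Capitals mark matches on either strand to GGGCGG (known as the GC box), to TATAAA (the letters searched for a TATA box), to CGGAAG (the core bound by ETS factors) and to the CCAAT box, where neighbouring matches may overlap. Mbnl1 has 2 annotated starts, and the array does not tell which of them was used.
Srsf2, chr11:116853095-116853344, minus strand: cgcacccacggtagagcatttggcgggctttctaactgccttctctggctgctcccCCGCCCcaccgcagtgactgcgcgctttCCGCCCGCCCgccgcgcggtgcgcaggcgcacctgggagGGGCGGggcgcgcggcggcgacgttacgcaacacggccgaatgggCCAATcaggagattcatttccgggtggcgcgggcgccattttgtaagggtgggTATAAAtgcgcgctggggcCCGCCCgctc
Hnrnpa1, chr15:103240147-103240396, plus strand: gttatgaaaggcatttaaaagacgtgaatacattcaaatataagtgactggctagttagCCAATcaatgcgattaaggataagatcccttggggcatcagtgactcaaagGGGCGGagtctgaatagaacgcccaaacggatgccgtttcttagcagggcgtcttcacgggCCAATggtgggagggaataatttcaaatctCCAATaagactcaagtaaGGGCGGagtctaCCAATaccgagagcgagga
Hnrnph3, chr10:63023850-63024099, minus strand: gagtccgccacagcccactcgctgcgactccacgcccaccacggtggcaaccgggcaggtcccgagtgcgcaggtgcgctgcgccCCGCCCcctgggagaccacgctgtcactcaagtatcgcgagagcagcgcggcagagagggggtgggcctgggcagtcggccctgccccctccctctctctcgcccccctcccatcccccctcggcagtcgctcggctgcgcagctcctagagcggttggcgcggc
Mbnl1 start 1, chr3:60472580-60472829, plus strand: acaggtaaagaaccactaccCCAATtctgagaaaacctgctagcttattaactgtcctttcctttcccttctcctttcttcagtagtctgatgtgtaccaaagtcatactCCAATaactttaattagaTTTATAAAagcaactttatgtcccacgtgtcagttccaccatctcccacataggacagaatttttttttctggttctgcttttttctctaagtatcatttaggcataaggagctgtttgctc
Mbnl1 start 2, chr3:60500929-60501178, plus strand: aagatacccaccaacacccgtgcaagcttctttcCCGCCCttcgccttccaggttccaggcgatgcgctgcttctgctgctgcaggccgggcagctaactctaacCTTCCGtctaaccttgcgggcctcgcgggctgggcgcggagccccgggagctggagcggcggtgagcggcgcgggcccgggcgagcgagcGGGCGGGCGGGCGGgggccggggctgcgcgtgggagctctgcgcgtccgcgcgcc
The GC content of these windows was 69.6% for Srsf2, 46% for Hnrnpa1, 73.6% for Hnrnph3, and 38% and 73.6% for the 2 starts of Mbnl1. Srsf2 held 5 GC boxes, 1 CCAAT box and 1 TATA box, Hnrnpa1 held 4 CCAAT boxes and 2 GC boxes, and Hnrnph3 held 1 GC box and no other motif. The 2 windows of Mbnl1 differed, with 2 CCAAT boxes and 2 overlapping TATA boxes at start 1 and 4 GC boxes and 1 ETS core at start 2. Promoter windows were found for 40 member genes, 55 windows in all. The GC box was in 39 of the 55 (70.9%), against 32.7% of the 32851 windows of all genes, and the ETS core in 17 (30.9%), against 13.6%. The CCAAT box was in 26 (47.3%), against 33.8%, and the TATA box in 4 (7.27%), against 12.4%. The member windows had a median GC content of 65.2%, against 52.4% over all windows. These matches describe letters in a window and are not binding sites.

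SR proteins fell or did not pass the threshold by their brightest probe set. Of the 9 tested genes 5 were lower (55.6%, against 32.8% of all genes) and 4 not called. Of those 4, 1 (Srsf11) was higher at an unadjusted p under 0.05 in limma. Each role group holds few genes, and its shares were not compared at like brightness. Srsf2 (SC35), a marker protein of nuclear speckles, had signals of 3517 and 3842 in the knockdown, against 5958 and 6153 in the control. The knockdown arrays were clearly apart from the control arrays, with a log2 difference of -0.72 ± 0.05 and an adjusted p of 5.07e-07 in limma. Its promoter is the first printed above. Srsf9, a smaller SR protein, had 758.5 and 821 in the knockdown, against 1339.6 and 1173 in the control, a difference of -0.66 ± 0.08 (limma, adjusted p = 2.87e-05). Srsf4, one of the largest SR proteins, had 989 and 1013 in the knockdown, against 1565 and 1578 in the control, a difference of -0.64 ± 0.06 (limma, adjusted p = 5.91e-06). For both genes the groups did not overlap, and the control arrays lay above the knockdown arrays.

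Srsf5 fell by 0.33 and Srsf6 by 0.25 on the log2 scale, and all 4 probe sets of Srsf6 were lower, between -0.25 and -0.19. The call of Srsf6 was lost after quantile scaling (limma, adjusted p = 0.0543) and with the tested probe sets as the centre (limma, adjusted p = 0.158). Srsf1, the founding SR protein and a constitutive splicing activator, was at 0.02 ± 0.05, with 5146 and 5573 in the knockdown, against 5323 and 5233 in the control. Srsf3, the smallest SR protein and an adaptor for mRNA export, was at -0.09 ± 0.05 and not called. It had 4325 and 4762 in the knockdown, against 4927 and 4769 in the control, groups that did not overlap. A dimmer probe set of Srsf3, 1416151_at, was called lower (-0.39 ± 0.07; limma, adjusted p = 0.000563). It had 861 and 858 in the knockdown, against 1122 and 1133 in the control. The other tested probe sets of Srsf3 were not called. Srsf10, which acts as a splicing repressor in its dephosphorylated form, was at 0.01 ± 0.09, and Srsf11 was at 0.13 ± 0.06. Srsf1 and Srsf11 were called higher after quantile scaling, at 0.13 and 0.27.

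**Figure D3:**
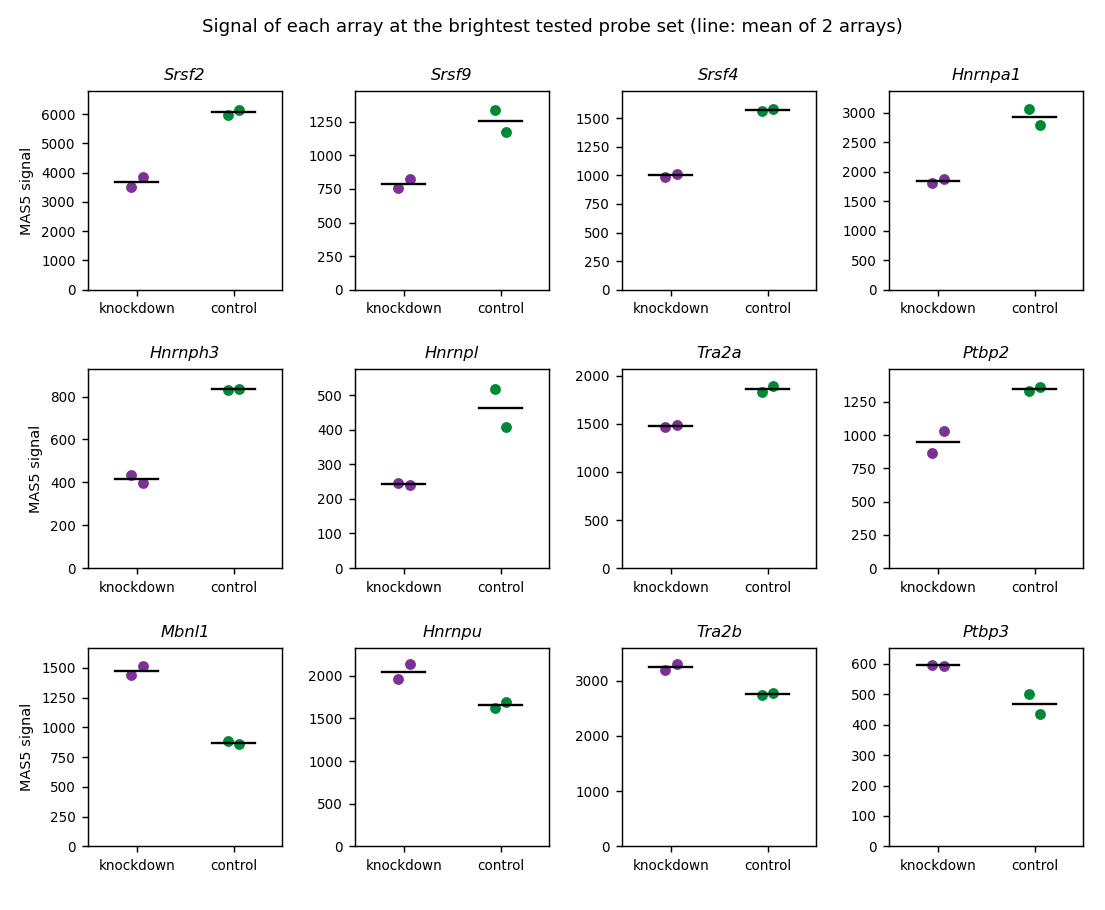
MAS5 signal (linear axis from 0) of each array for 12 member genes at their brightest tested probe set, with the knockdown arrays on the left and the control arrays on the right of each panel. Lines are means of 2 arrays. In none of the 12 panels do the groups overlap, for example 436 and 398 in the knockdown against 832 and 837 in the control for Hnrnph3. The 12 genes were picked from called genes, which favours groups that lie apart. Of all tested probe sets 44.3% had the knockdown signals below the control signals without overlap, and 22.6% above.

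Other probe sets of an SR gene did not always move with the brightest. For Srsf2 a further probe set fell by 0.73, while 2 others were at -0.01 ± 0.06 and -0.06 ± 0.15. The first of these, 1427504_s_at, had 2452 and 2563 in the knockdown, against 2606 and 2453 in the control. In a fit of the difference between a probe set and the brightest of its gene, added after the data were seen, it stood 0.71 ± 0.06 above the brightest (limma, adjusted p = 0.000141), and it was called without each array in turn. Both probe sets of Srsf2 that fell match several transcripts (_s_at), and without such probe sets the gene is represented by one at -0.06 and is not called. In Srsf10, 1449121_at fell to 238 and 264 in the knockdown, against 451 and 401 in the control, and lay 0.73 ± 0.11 below the brightest (limma, adjusted p = 0.00287), also without each array in turn. In Srsf1, 1430982_at rose to 1592 and 1774 in the knockdown, against 1285 and 982 in the control, and lay 0.55 ± 0.10 above the brightest (limma, adjusted p = 0.00591). That difference was lost without knockdown array 2 (limma, adjusted p = 0.0592). In Srsf11, 1430077_at rose to 59.9 and 62.6 in the knockdown, against 23.7 and 27.5 in the control (0.89 ± 0.19; limma, adjusted p = 0.00187).

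Among the SR-related proteins and the kinase Srpk1, 3 of 5 genes were lower, 1 higher and 1 not called. Of all genes 32.8% were lower and 8.89% higher. Srrm1 (SRm160), a coactivator that joins SR proteins on enhancers, had 1788 and 1912 in the knockdown, against 2529 and 2479.8 in the control (-0.43 ± 0.06; limma, adjusted p = 6.68e-05), and 3 of its 5 tested probe sets were lower. Tra2a and Tra2b, paralogous SR-like proteins that bind purine-rich enhancers, were called in opposite directions. Tra2a had 1466 and 1486 in the knockdown, against 1834 and 1895 in the control (-0.33 ± 0.06; limma, adjusted p = 0.000644). Tra2b had 3188 and 3308 in the knockdown, against 2741 and 2780.5 in the control (0.23 ± 0.05; limma, adjusted p = 0.0031). Groups did not overlap for either gene. The rise of Tra2b was lost with spike-in scaling (0.14; limma, adjusted p = 0.199), and its second bright probe set was at -0.03 ± 0.06.

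Srpk1, a mostly cytoplasmic kinase that phosphorylates SR proteins for import into the nucleus, had 462 and 469 in the knockdown, against 611 and 544 in the control (-0.30 ± 0.09; limma, adjusted p = 0.0157). Its second probe set fell by 0.49, and in both probe sets the knockdown arrays lay below the control arrays. The call at the brightest probe set was lost after quantile scaling (-0.11), after centring on the tested probe sets (-0.15), without knockdown array 1 (-0.29), without knockdown array 2 (-0.31) and without control array 1 (-0.22). Srrm2, a scaffold protein of nuclear speckles, was at -0.07 ± 0.10, while its dimmer probe set 1438688_at had 113 and 159 in the knockdown, against 87.4 and 82.0 in the control (0.58 ± 0.16; limma, adjusted p = 0.0113).

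Of the 6 genes of the hnRNP A, B and D family, 3 were lower and 3 not called, while 32.8% of all genes were lower. After quantile scaling 2 of the 6 were lower and 1 higher, while 21.3% of all genes were lower and 16.7% higher. Hnrnpa1, a shuttling repressor that opposes Srsf1 in the choice of splice sites, had 1813 and 1883 in the knockdown, against 3061 and 2804 in the control. Every knockdown signal was below every control signal, with a difference of -0.66 ± 0.06 (limma, adjusted p = 2.80e-06), and a second bright probe set fell by 0.77. Hnrnpa1 has processed pseudogenes, and whether its probe sets separate such near-identical copies was not tested, so its values are uncertain in that respect. Hnrnpa2b1 was at -0.04 ± 0.05, with 4443 and 4361 in the knockdown, against 4443 and 4615 in the control. Its probe set 1433830_at rose to 953 and 1046 in the knockdown, against 791 and 784 in the control (0.34 ± 0.07; limma, adjusted p = 0.00284). Hnrnpa0 was at 0.11 ± 0.07.

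Hnrnpdl had 5956 and 6097 in the knockdown, against 7415 and 6975 in the control (-0.25 ± 0.05; limma, adjusted p = 0.000667), and 4 of its 7 tested probe sets were lower. Its call was lost after centring on the tested probe sets (-0.10; limma, adjusted p = 0.105). Hnrnpd (AUF1), which binds AU-rich elements and is known for its part in mRNA decay, had 1898 and 2029 in the knockdown, against 2388 and 2149 in the control (-0.21 ± 0.07; limma, adjusted p = 0.0243). Its second probe set had 57.7 and 68.3 in the knockdown, against 132 and 105 in the control (-0.77 ± 0.16; limma, adjusted p = 0.00175). The call of Hnrnpd at its brightest probe set was lost after quantile scaling (-0.03), after centring on all (-0.16) or on tested probe sets (-0.06), without knockdown array 1 (-0.16) and without control array 1 (-0.13). At the brightest probe sets of Hnrnpdl and Hnrnpd all knockdown signals were below the control signals.

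Hnrnpab was the only member gene whose tested probe sets spanned more than 1 on the log2 scale. Its brightest probe set had 8734 and 8915 in the knockdown, against 8840.5 and 8389 in the control, a difference of 0.04 ± 0.04 that was not called. Probe set 1415914_at fell to 4619 and 4954 in the knockdown, against 6186 and 5552 in the control (-0.29 ± 0.06; limma, adjusted p = 0.00119). Probe set 1426114_at rose to 188 and 182 in the knockdown, against 85.0 and 96.8 in the control (0.91 ± 0.13; limma, adjusted p = 9.52e-05). In both probe sets the groups did not overlap, and both differed from the brightest in the fit within genes without each array in turn. The sign at the brightest probe set changes with spike-in scaling (-0.06), and when _x_at and _s_at probe sets are left out the gene is represented by 1415914_at.

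Of the 13 other hnRNPs, 6 were lower (46.2%, against 32.8% of all genes), 1 higher (7.69%, against 8.89%) and 6 not called. Hnrnph3 had the largest fall of any member gene, with 436 and 398 in the knockdown, against 832 and 837 in the control (-0.97 ± 0.08; limma, adjusted p = 1.54e-06). Its relatives Hnrnph1, Hnrnph2 and Hnrnpf bind runs of G in RNA. Hnrnph1 had 5266 and 5544 in the knockdown, against 7563 and 7225 in the control (-0.45 ± 0.05; limma, adjusted p = 8.04e-06). Its dimmer probe set 1437267_x_at was not called, with 184 and 203 in the knockdown, against 150 and 174 in the control (0.23 ± 0.12). In the fit within genes it lay 0.68 ± 0.14 above the brightest (limma, adjusted p = 0.0127). Hnrnph2 was at 0.02 ± 0.11. At the brightest probe sets of Hnrnph3 and Hnrnph1 both knockdown arrays lay below both control arrays. The brightest probe set of Hnrnpf was at -0.05 ± 0.06, with 2797 and 2581 in the knockdown, against 2869 and 2708 in the control, a value whose sign turns after quantile scaling (0.09) and with the tested probe sets as the centre (0.10). Probe sets of Hnrnpf were called in both directions, since 1423382_a_at had 863 and 887 in the knockdown, against 1081 and 1062 in the control (-0.29 ± 0.07), and 1437099_x_at had 863 and 985 in the knockdown, against 641 and 790.3 in the control (0.37 ± 0.10). A further one, 1450963_at, fell by 0.20.

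Hnrnpl, which binds CA repeats, had 247 and 239 in the knockdown, against 518 and 407 in the control (-0.88 ± 0.11; limma, adjusted p = 4.85e-05). Its paralog Hnrnpll, known for its part in alternative splicing in lymphocytes, had 2952 and 3027 in the knockdown, against 4165 and 4250.1 in the control (-0.49 ± 0.05; limma, adjusted p = 6.78e-06), and its second probe set fell by 0.25. Hnrnpm fell by 0.48 and Hnrnpc by 0.32 on the log2 scale. Hnrnpc binds runs of U and in human cells is known to keep exons derived from Alu repeats from being spliced in. It had 5717 and 5529 in the knockdown, against 7096 and 6959 in the control (limma, adjusted p = 7.64e-05), and its second probe set was at 0.04 ± 0.08. Groups did not overlap at the brightest probe set of Hnrnpl, Hnrnpll, Hnrnpm or Hnrnpc.

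Hnrnpu, a nuclear matrix protein that binds RNA and chromatin, was the hnRNP called higher by its brightest probe set. It had 1967 and 2134 in the knockdown, against 1625 and 1693 in the control (0.30 ± 0.06; limma, adjusted p = 0.00185), and 2 further probe sets rose by 0.51 and 0.59. In each of these 3 probe sets both knockdown arrays were above both control arrays. The other 2 of the 5 tested probe sets of Hnrnpu were not called, at -0.23 ± 0.17 and 0.26 ± 0.16. With spike-in scaling the brightest probe set was at 0.21 and no longer called (limma, adjusted p = 0.0676). Its relatives Hnrnpul1 and Hnrnpul2 were at -0.08 ± 0.09 and -0.15 ± 0.09. Hnrnpk, which binds runs of C, was at 0.12 ± 0.05, while its probe set 1448176_a_at had 3586 and 3603 in the knockdown, against 4279 and 3997 in the control (-0.20 ± 0.05; limma, adjusted p = 0.00725). Hnrnpr was at 0.15 ± 0.06, and its probe set 1437526_x_at rose by 0.45. After quantile scaling Hnrnpk, Hnrnpr and Hnrnpa0 were called higher, at 0.22, 0.32 and 0.28.

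The polypyrimidine tract binding proteins are splicing repressors that take over from each other as neurons form, Ptbp1 in most cells and Ptbp2 in neurons. Both were lower in the knockdown, and the remaining paralog, Ptbp3, was higher. Ptbp2 had 864 and 1031 in the knockdown, against 1333 and 1359 in the control (-0.50 ± 0.08; limma, adjusted p = 0.000279), and its dimmer probe set fell by 0.66. Ptbp1 had 2635 and 2656 in the knockdown, against 3329 and 2958 in the control (-0.25 ± 0.06; limma, adjusted p = 0.0061). Its call was lost after quantile scaling (-0.12), after centring on all (-0.20) or on tested probe sets (-0.10) and without control array 1 (-0.16). Ptbp3 had 598 and 594 in the knockdown, against 499.9 and 436 in the control (0.34 ± 0.09; limma, adjusted p = 0.00807). Its call was lost with spike-in scaling (0.25) and without control array 2 (0.25). Groups did not overlap for any of the 3 genes.

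Of the 8 remaining factors, many of them regulated by tissue, 3 were higher (37.5%, against 8.89% of all genes). Another 1 of the 8 was lower (12.5%, against 32.8%), and 4 were not called. Mbnl1, a zinc finger protein that switches exons as muscle and brain mature, had the largest rise of any member gene. It had 1441 and 1515.5 in the knockdown, against 885 and 860.2 in the control, 1.68-fold on the scale of signal + 16 (0.75 ± 0.07; limma, adjusted p = 2.50e-06). The control arrays were both below the knockdown arrays. Its 2 annotated starts are printed above, and 2 dimmer probe sets of the gene did not pass the filter. The 5 tested probe sets of its paralog Mbnl2 lay between -0.14 and 0.17, and limma called 0 of them, at an unadjusted p under 0.05 as well.

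Nova1, an RNA-binding protein of neurons, had 55.4 and 76.7 in the knockdown, against 45.9 and 27.7 in the control (0.65 ± 0.21; limma, adjusted p = 0.0276). It is a dim probe set, and its call was lost without knockdown array 2 (0.46) and without control array 2 (0.39). Khdrbs1 (Sam68), a signal-responsive splicing regulator, was higher by 0.26 ± 0.07 (limma, adjusted p = 0.0117). Its call was lost with spike-in scaling (0.16), without knockdown array 1 (0.26), without knockdown array 2 (0.25) and without control array 2 (0.15). Elavl1 (HuR), which binds AU-rich elements and stabilises mRNA, had 652 and 695 in the knockdown, against 894 and 786 in the control (-0.31 ± 0.08; limma, adjusted p = 0.00958). Its call was lost after quantile scaling (-0.12), after centring on the tested probe sets (-0.16), without knockdown array 1 (-0.26) and without control array 1 (-0.22). Its other 4 tested probe sets lay between -0.24 and 0.35 and were not called. The calls of Nova1, Khdrbs1 and Elavl1 thus each changed with the arrays that entered the fit.

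Rbfox2, which binds UGCAUG and controls many neuronal and muscle exons, was at -0.30 ± 0.13 by its brightest probe set. Its 4 tested probe sets lay between -0.30 and -0.12, limma called 0 of them, and 1 was lower at an unadjusted p under 0.05. Without control array 2 the brightest was called lower (-0.47; limma, adjusted p = 0.0156). Celf1 (CUG-BP1), which binds GU-rich elements, was at -0.08 ± 0.06, and its probe set 1426408_at had 280.3 and 252 in the knockdown, against 427 and 333.5 in the control (-0.48 ± 0.12; limma, adjusted p = 0.0056). Rbm39, a U2AF-like splicing factor, was at -0.11 ± 0.08, with overlapping signals of 834 and 984 in the knockdown, against 1018 and 939 in the control. Of its 10 tested probe sets 2 rose, 1442744_at by 0.44 and 1456386_at by 0.73.

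**Figure D4:**
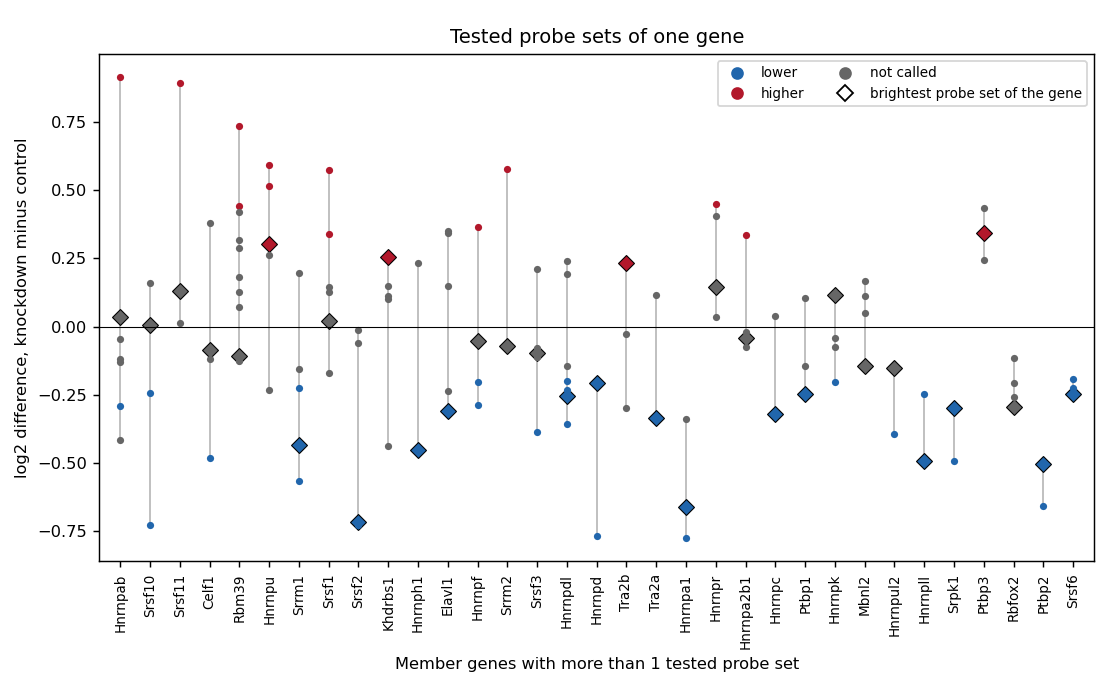
Log2 difference (4.5SH knockdown minus control, vertical axis) of every tested probe set for the 33 member genes with more than 1, ordered by the span of their values. Diamonds are the brightest probe set of each gene and colours the call. Hnrnpab spans -0.42 to 0.91, while the 4 probe sets of Srsf6 lie between -0.25 and -0.19.

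Probe sets of one gene did not always carry the same call. Of the 33 member genes with more than 1 tested probe set, 5 had every one lower (Srsf6, Srpk1, Hnrnpd, Hnrnpll and Ptbp2), against 10.3% of all such genes. Hnrnpab and Hnrnpf, 2 genes, had calls in opposite directions, against 1.85% of all. In the fit within genes, 22 of 98 member probe sets (22.4%) differed from the brightest of their gene, against 10.7% of all such probe sets. When pairs of probe sets in the brightest 25% were fitted and adjusted on their own, 19 of 64 member pairs differed, against 19.6% of all such pairs. The count of 22 over all 98 pairs fell when knockdown array 1 or knockdown array 2 was left out. It was 0 in limma without the intensity trend, where 26 of the 98 had an unadjusted p under 0.05. The 5 differences called without each array in turn were those of 1427504_s_at of Srsf2, 1449121_at of Srsf10, 1415914_at and 1426114_at of Hnrnpab and 1448176_a_at of Hnrnpk. Whether these probe sets lie in different isoforms was not tested, because probe and transcript sequences were not used here.

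A further list of 49 splicing regulators gave 40 tested genes, with a median of -0.18. Of these 16 were lower (40.0%, against 32.8% of all genes), 7 higher (17.5%, against 8.89%) and 17 not called. These shares were not compared at like brightness either. The 2 largest falls were in kinases. Clk3, a nuclear kinase of SR proteins, had 263 and 274 in the knockdown, against 608 and 590.5 in the control (-1.11 ± 0.09; limma, adjusted p = 9.98e-07). Clk4 fell by 0.45 and Clk1 by 0.23, while Clk2 was at 0.05 ± 0.12 and Srpk2 at -0.16 ± 0.10. The call of Clk1 was lost after quantile scaling (-0.06) and after centring on all (-0.19) or on tested probe sets (-0.08). Prpf4b, a kinase tied to spliceosome assembly, had 635 and 602 in the knockdown, against 1165 and 1212 in the control (-0.92 ± 0.07; limma, adjusted p = 8.85e-07). Rsrc1, an arginine and serine rich protein, had 94.7 and 119 in the knockdown, against 212 and 195 in the control (-0.85 ± 0.13; limma, adjusted p = 0.000237). At the brightest probe sets of Clk3, Prpf4b and Rsrc1 the knockdown arrays lay below the control arrays.

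Of the 3 largest rises of that list, 2 were in RNA-binding proteins of neurons. The other tested Elavl, Celf, Nova, Rbfox and Srrm genes of the list did not share a direction. Elavl2 was called higher (0.24) and Srrm3 lower (-0.37). Not called were Elavl3 (0.33), Celf3 (0.06), Celf6 (-0.05), Nova2 (-0.07), Rbfox1 (-0.19), Celf5 (-0.25) and Srrm4 (-0.49). Elavl4 (HuD) had 70.4 and 76.0 in the knockdown, against 34.1 and 29.9 in the control (0.89 ± 0.17; limma, adjusted p = 0.00122). Celf4 had 50.7 and 72.6 in the knockdown, against 35.0 and 33.7 in the control (0.61 ± 0.19; limma, adjusted p = 0.0237), and all 3 tested probe sets of each gene were higher. Pnn, a nuclear speckle protein, had 195 and 227 in the knockdown, against 147 and 140.1 in the control (0.51 ± 0.12; limma, adjusted p = 0.00464). The call of Celf4 was lost without knockdown array 2 (0.41), control array 1 (0.63) or control array 2 (0.59), and that of Pnn without knockdown array 2 (0.41). Tnpo3, the importin of SR proteins, was higher in all 3 of its probe sets, by 0.34 ± 0.08 at the brightest (limma, adjusted p = 0.00493). Its call was lost with spike-in scaling (0.25; limma, adjusted p = 0.0586).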

How the data were processed

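The authors deposited linear intensities, which the submitters' processing notes call MAS5. The sources used here give neither the MAS5 version nor the scaling target. Genes were named from probe sets with 1 symbol (34945 of 45037), and symbols were updated through a RefSeq table by Entrez identifier for 34741, including all 166 members. A set of 7 probe sets with several symbols, 1 of them a member's, was not used. The suffix _a_at marks probe sets for several transcripts of one gene, _s_at those shared among several transcripts, and _x_at those with probes that may bind other transcripts.

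Signals were taken as log2(signal + 16) with no further scaling. Probe sets at or above the median of the mean over 4 arrays were tested (22519, 11804 genes, a signal of about 16.4). Differences were tested over all of them with limma 3.58.1 in R 4.3.3 (lmFit, eBayes with an intensity trend, two-sided, Benjamini-Hochberg at 0.05, 13.6 degrees of freedom), and the script was tested on simulated data. An exact permutation test of 2 against 2 arrays has a smallest p of 0.333, so each p rests on the variance shared across probe sets. The number of arrays limits the precision.

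The members, roles and lists were chosen with earlier results of these data known. Genes with signals per array were, in each role group, the 3 largest falls and 2 largest rises among called genes by the brightest tested probe set, genes with opposite calls or a span over 1 between probe sets, and the 3 largest falls and rises of the further list. Other genes and probe sets with signals were chosen after their values were seen. The fit within genes (probe set minus brightest, with the level of the dimmer probe set as trend) and the genes with an older alias were added after the data were seen. The alternatives tried were quantile scaling, centring on all or on tested probe sets, scaling to 9 hybridization spike-in probe sets, pseudocounts of 1 and 64, a fit without the intensity trend, the brightest 25% or no filter, a replicate block, no _x_at or _s_at probe sets, gene-level fits, other thresholds, and leaving out each array. Promoter sequences are from RefSeq. Figures were drawn with matplotlib 3.10.9 and pandas 2.3.3 in Python 3.11.15.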

Additional observations from a re-analysis of the deposited data

How the results depend on the processing

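Of 529 repeats for single named genes, 450 kept the direction and the side of the threshold, 68 lost the call, 2 gained one and 9 turned sign. The turned values were those of Hnrnpf (0.087 after quantile scaling, 0.0965 centred on tested probe sets, 0.0049 without knockdown array 2 and otherwise down to -0.11 with an array left out), Hnrnpab (-0.059 with spike-in scaling, -0.29 without _x_at and _s_at probe sets, -0.0076 as the mean of its probe sets, -0.0027 without control array 2 and up to 0.073 without another array), and, as means of their probe sets, Elavl1 (0.0597) and Tra2b (-0.031). Member probe sets were 25 lower and 37 higher after quantile scaling (median 0.0715), 24 and 36 centred on tested probe sets (0.0673), 45 and 11 with spike-in scaling (-0.17), 20 and 7 without the intensity trend, and 11 and 6 with a 1.5-fold minimum, against 43 and 19 as reported. Member genes were 11 higher after quantile scaling, 12 centred on tested probe sets, 2 with spike-in scaling, 11 lower and 1 higher without the trend, and 6 and 2 with the fold minimum. Genes of the further list were 9 lower and 11 higher after quantile scaling and when centred on tested probe sets, 3 higher with spike-in scaling or at a threshold of 0.01, 4 higher without the filter, 9 and 2 without the trend, and 6 and 2 with the fold minimum. Leaving out each array gave 32 to 42 member probe sets lower and 12 to 21 higher, 16 to 21 member genes lower and 3 to 6 higher, 10 to 16 genes of the further list lower and 3 to 5 higher, and 5 to 21 differences within genes, which were 0 without the trend in limma (26 at an unadjusted p under 0.05). The lowest counts of higher member probe sets and of differences within genes came without knockdown array 2, and that of higher member genes without control array 2. Arrays share replicate numbers, but the deviations of same-numbered arrays correlated at 0.0017 over all tested probe sets and at 0.216 over the member probe sets. The labels do not say that a number marks a shared source, so the samples are taken to share only a number. With a replicate block 42 member probe sets were lower and 23 higher, and no named gene changed its call. Probe sets near the filter are measured against background, and the scaling the authors used is unknown, so a direction that turns with scaling has no settled sign here.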

Other observations

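Genes that carry an Srsf or Hnrnp name only as an older alias gave 28 more tested probe sets. Clasrp, an SR-related protein that binds the kinase Clk4, had 335 and 327 in the knockdown, against 704 and 747 in the control (-1.09 ± 0.08; limma, adjusted p = 7.67e-07). Sfswap, whose relative in Drosophila controls the splicing of its own transcript, had 271 and 268.5 in the knockdown, against 431 and 466 in the control (-0.70 ± 0.09; limma, adjusted p = 6.44e-05). In both genes the groups did not overlap. They were chosen after their values were seen.

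In the further list, Luc7l, related to a U1 snRNP protein of yeast, was lower in all 4 of its tested probe sets, between -0.97 and -0.63. It was also chosen after its values were seen.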
